A study of Mus musculus with 6 samples.

Results

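Mitochondrial fusion and fission genes were examined as 10 members: the outer-membrane mitofusins Mfn1 and Mfn2, the inner-membrane fusion GTPase Opa1, the Opa1-cleaving protease Oma1, the fission GTPase Dnm1l (Drp1), the outer-membrane fission factors Fis1, Mff and Mief1, the mitophagy kinase Pink1 and the outer-membrane channel Vdac1. They were 10 of 21911 protein-coding genes in GENCODE vM21, and their values were taken from every peak within 1 kb of any annotated transcript start of the gene. The data were H3K4me3 ChIP-Seq peak lists from STHdh cells, conditionally immortalised mouse striatal progenitor lines of the C57BL/6 strain. They express human huntingtin, wild-type in STHdhQ7 and polyglutamine-expanded in STHdhQ111, which the paper describes as a homozygous knock-in of mutant huntingtin. There were 6 lists, 1 for each condition. Q7SST came from the wild-type line (STHdhQ7) and Q111SST from the mutant line (STHdhQ111), each kept with vehicle. The other 4 lists came from STHdhQ111 cells treated with 10 µM cyproheptadine, loxapine, diacylglycerol kinase inhibitor II (DKI) or meclizine. All 6 conditions shared serum-free medium for 24 h, the insult used in this model, so no list shows cells in full serum. The study placed cyproheptadine and loxapine in its Group A of protective compounds and DKI and meclizine in its Group B. STHdhQ7 and STHdhQ111 are separate cell lines, so genotype and line cannot be told apart.

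Peak numbers were 38392 for Q7SST, 40406 for Q111SST, 33721 under cyproheptadine, 45564 under loxapine, 30758 under DKI and 38577 under meclizine. Cells were treated in triplicate according to the series' design text, but each condition had 1 list, so no value below has a replicate error and no difference was tested. Read depth is unknown because the lists hold no reads. For the labelled cell type, 5 of 13 neural progenitor and striatal lineage genes were marked in all 6 lists (Dlx1, Dlx2, Dlx5, Ebf1 and Foxp1), and the mature striatal neuron receptors Drd1 and Drd2 were marked in none. Of 9 defining genes of other cells, 7 were marked in no list, while the astrocyte gene Gfap was marked in the 5 lists from STHdhQ111 cells and not in Q7SST.

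Mitochondria fuse and divide continuously. Fusion joins first the outer membranes through the mitofusins and then the inner membranes through Opa1, which Oma1 cleaves when the membrane potential is lost. Fission needs Dnm1l, a dynamin-like GTPase recruited from the cytosol by outer-membrane adaptors, and Pink1 accumulates on depolarised mitochondria and starts their removal. Mitochondrial fragmentation in cells with mutant huntingtin is a long-studied feature of Huntington disease models. H3K4me3, the mark measured here, is trimethylated lysine 4 of histone H3 and lies over the starts of genes that are transcribed or open to transcription, so a peak gives the state of a promoter and not the amount of RNA or protein.

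The promoter stretches below show the members on which the results turn. The first pair are both promoters of Fis1, the member with the highest mean peak strength, and the next is the promoter of Mfn2, whose strength varied most and whose peak was split in some lists. Sequence is given 5′ to 3′ on the strand of the gene from the GRCm38.p6 reference, and in the first 3 the capitals mark the searched motifs. The Fis1 and Mfn2 stretches are set by RefSeq starts, that of Mfn2 being upstream of its first GENCODE start. The Oma1 stretch, chosen after its values were seen, is set by the first GENCODE start at 103313812, upstream of the RefSeq start at 103313846, and has in capitals the 38 bases that the Q7SST peak covered.
Fis1 upstream promoter, chr5:136953025-136953304, plus strand: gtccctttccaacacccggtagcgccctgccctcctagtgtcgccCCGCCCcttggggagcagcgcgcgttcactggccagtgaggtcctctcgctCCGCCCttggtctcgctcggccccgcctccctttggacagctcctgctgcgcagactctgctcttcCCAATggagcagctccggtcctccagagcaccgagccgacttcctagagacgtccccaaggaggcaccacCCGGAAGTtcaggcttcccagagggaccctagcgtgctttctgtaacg
Fis1 downstream promoter, chr5:136961827-136962106, plus strand: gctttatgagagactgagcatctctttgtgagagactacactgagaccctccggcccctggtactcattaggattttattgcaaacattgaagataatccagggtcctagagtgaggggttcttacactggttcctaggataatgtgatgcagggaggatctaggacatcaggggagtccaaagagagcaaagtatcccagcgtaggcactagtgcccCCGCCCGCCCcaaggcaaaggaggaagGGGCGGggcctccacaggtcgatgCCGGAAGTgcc
Mfn2 promoter, chr4:147904880-147905159, minus strand: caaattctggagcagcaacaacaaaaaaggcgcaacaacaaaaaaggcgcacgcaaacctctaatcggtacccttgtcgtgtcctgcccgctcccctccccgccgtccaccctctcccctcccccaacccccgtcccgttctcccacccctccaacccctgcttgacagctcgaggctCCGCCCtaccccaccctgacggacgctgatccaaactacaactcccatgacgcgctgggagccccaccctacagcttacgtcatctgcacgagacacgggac
Oma1 promoter, chr4:103313596-103313841, plus strand: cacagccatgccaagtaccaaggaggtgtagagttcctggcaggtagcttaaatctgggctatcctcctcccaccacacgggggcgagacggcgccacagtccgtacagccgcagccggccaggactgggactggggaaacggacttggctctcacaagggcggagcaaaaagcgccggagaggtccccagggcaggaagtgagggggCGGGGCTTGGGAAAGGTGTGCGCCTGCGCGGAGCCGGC

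RefSeq held 16 promoters, each of 250 bases before and 50 bases after a start, for 10 of 10 members. Their median GC content was 63.5%, against 52.7% over 32851 promoters, and the median ratio of observed to expected CpG was 0.811, against 0.384. The members' promoters were therefore mostly of the CpG-rich kind on which H3K4me3 is usually found. Motifs were searched on both strands, and GGGCGG, the core of a GC box, was found in 13 of 16 promoters and in 10 of 10 members, against 35.7% of all promoters. CCAAT was found in 5 of 16 promoters, 1 each of Dnm1l, Fis1, Mff, Mfn1 and Opa1, against 37.4% of all promoters. GCGCANGCG, a form of the NRF1 site, was found in 3 of 16 promoters, those of Oma1, Opa1 and Pink1, against 6.25% of all promoters. CCGGAAGT, an ETS site, was found in 4 of 16 promoters, both of Fis1 and those of Mfn1 and Mief1, against 3.89% of all promoters. TATAAA and CACGTG were found in 0 of the 16, against 13.6% and 7.15% of all promoters. These matches describe the letters of the windows only. The downstream promoter of Fis1 had the lowest CpG ratio of the 16, 0.359 at 54.7% GC, whereas the upstream one had a ratio of 0.7 at 65.0% GC.

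Every member was marked by H3K4me3 in every condition. In Q7SST 10 of 10 promoters were marked, where 59.9% of all protein-coding genes were. In Q111SST it was again 10 of 10, against 58.4% of all genes, and likewise with cyproheptadine (55.4% of all genes), loxapine (58.1%), DKI (55.8%) and meclizine (58.6%). All 10 were marked in all 6 lists, as were 53.5% of all genes, or 11713 of them. Each member thus kept at least 1 promoter peak in every list, although a weaker peak at another start was not always listed, as at Oma1.

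Strength was measured as the percentile of a promoter's strongest peak among all peaks of its own list, by the deposited score, so 90 means that the peak outscored about 90% of its list. The members' median percentile was 86.5 in Q7SST, 84.8 in Q111SST, 81.5 under cyproheptadine, 80.1 under loxapine, 85.2 under DKI and 83.4 under meclizine. Over all marked genes the medians in the same order were 80.4, 82.6, 79.5, 83.0, 76.3 and 80.3. The members lay near the middle of marked genes, with 6 of 10 above that median in 5 lists and 4 of 10 with loxapine. Their median width was 1728 bp in Q7SST, 1978.5 bp in Q111SST, 1416.5 bp under cyproheptadine, 1776 bp under loxapine, 1319 bp under DKI and 1756 bp under meclizine. The medians for all marked genes were 1709, 1795, 1546, 1720, 1461 and 1672 bp, so the members' median was above that of all genes in 4 lists and below it with cyproheptadine and DKI. Of the 10 members 5 were wider than the median gene in Q7SST and with loxapine, 6 in Q111SST and with meclizine, and 3 with cyproheptadine and DKI. Against Q111SST, a difference was counted where the percentile moved by at least 5 points or the peak was at least 25% wider or 20% narrower. These limits are sizes, not tests.

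**Figure D1:**
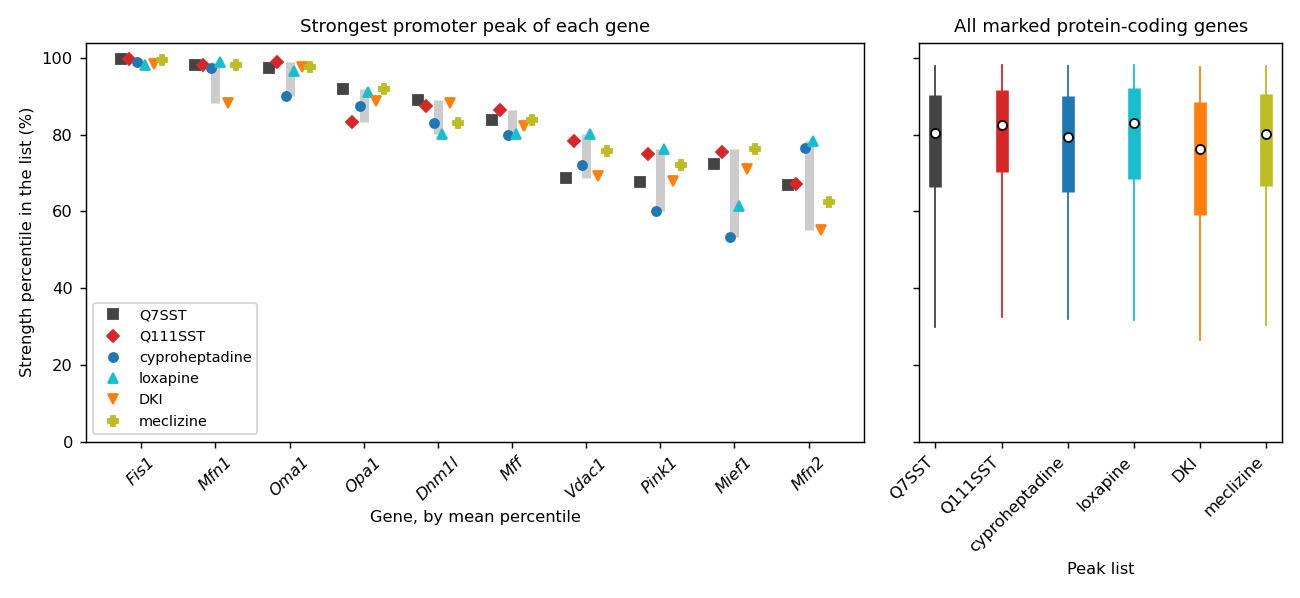
Strength percentile of the strongest promoter peak of each of the 10 genes (left, 1 symbol per list, grey bar from the lowest to the highest list) and of all marked protein-coding genes in each list (right, thick bar the middle 50%, thin line the 5th to 95th percentile, circle the median). Fis1 stayed between 98.1 and 99.8, near the top of the scale, while Mief1 and Mfn2 spread over more than 20 points.

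The genes were ordered by their mean percentile. Fis1 was first over the 6 lists at 99.1, followed by Mfn1 at 96.5 and Oma1 at 96.4. Opa1 (89.1), Dnm1l (85.2) and Mff (82.7) made a middle set. Vdac1 (74.0), Pink1 (69.9), Mief1 (68.3) and Mfn2 (67.7) came last. The lowest-to-highest range of a gene over the lists was 1.64 points for Fis1 and 6.47 for Mff, and it reached 22.8 for Mief1 and 23.2 for Mfn2. Genes near the top of the scale have less room to vary in points. Neighbours in this order overlapped in their ranges, whereas every value of Fis1, Mfn1 and Oma1 was above every value of the last 4 genes. The median range was 9.87 points for the members and 14.4 over the 11713 genes marked in all lists. The ratio of the widest to the narrowest list had a median of 1.48 for the members and 1.37 for all genes, and the members' median was 1.31 when peaks within 1 kb were merged, against 1.35 for all genes.

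Mfn1 encodes a mitofusin that tethers the outer membranes of neighbouring mitochondria. The gene (ENSMUSG00000027668.13, chr3:32529465-32579239, plus strand) had 10 annotated starts, and its Q111SST peak covered 478 bp outside the gene, 231 bp of UTR and 1026 bp of intron. Its percentile was 98.2 in Q7SST, 98.3 in Q111SST, 97.4 under cyproheptadine, 98.9 under loxapine, 88.2 under DKI and 98.3 under meclizine. DKI was thus the low list, at -10.07 points against Q111SST, and the other 5 lay between 97.4 and 98.9. Width was 1438, 1735, 1461, 1522, 1444 and 1373 bp in the same order, so Q111SST was the widest list and every other list had a ratio to it between 0.791 and 0.877.

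Mfn2, the second mitofusin, also tethers mitochondria to the endoplasmic reticulum. The gene (ENSMUSG00000029020.13, chr4:147873599-147904704, minus strand) had the broadest promoter peak of the 10 in Q7SST, Q111SST, DKI and meclizine, at 2957, 3042, 2824 and 3048 bp. With cyproheptadine and loxapine the strongest peak measured only 1357 and 1439 bp. In those 2 lists the block was deposited as a pair of peaks, one over the start and another upstream of it. The upstream peak ran from 147906010 to 147906785 with cyproheptadine (776 bp, percentile 69.7) and from 147906040 to 147906773 with loxapine (734 bp, percentile 60.8), and the single peaks of the other lists reached to between 147906694 and 147906790. The far edge was therefore about the same in all 6 lists, and what differed was a gap of 861 bp with cyproheptadine and 875 bp with loxapine. The printed Mfn2 stretch lies at the near side of that gap, where the peaks over the start ended at 147905148 and 147905164.

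The sequence under the 3 segments was not alike. With cyproheptadine's coordinates the peak over the start had 57.1% GC and 67 CpG in 1357 bp, and the gap had 44.8% GC and 12 CpG. The upstream peak had 49.4% GC and only 6 CpG. Soft-masked repeats made up 12.5%, 26.1% and 18.7% of these segments. The part of base composition and repeats in the gap was not tested. A Q111SST promoter peak that overlapped 2 or more peaks of another list was found for Mfn2 alone among the members, a comparison chosen after the values were seen. It occurred for 1 of 10 with cyproheptadine, against 4.32% of all genes, and for 1 of 10 with loxapine, against 3.88%. It occurred for 0 of 10 in Q7SST (1.33% of all genes), DKI (3.75%) and meclizine (0.821%).

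Mfn2 had its highest percentiles in the same lists in which its block was split. They were 66.8 in Q7SST, 67.1 in Q111SST, 76.5 under cyproheptadine, 78.3 under loxapine, 55.1 under DKI and 62.6 under meclizine. Cyproheptadine and loxapine were the high lists, 9.38 and 11.2 points above Q111SST, and DKI was the low one, at -12.02 points. In lists of equal size the cyproheptadine difference was larger, at 17.43 points, and the DKI difference shrank to -1.70 points, and to -2.56 among promoter peaks. Joining peaks within 1 kb of each other brought the width ratio to Q111SST to 0.984 for cyproheptadine (0.446 as deposited) and to 1 for loxapine (0.473 as deposited), so the narrowing rested on the split alone. The genes whose percentiles over the 6 lists were closest to those of Mfn2, among 11712 searched, were Zfp236, Gtpbp1 and Eif4a1, with a largest difference in any list of 3.82, 4.79 and 5.46 points.

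Opa1 encodes the dynamin-like GTPase that fuses inner membranes and shapes cristae. At this gene (ENSMUSG00000038084.16, chr16:29579334-29654884, plus strand) Q111SST was the lowest of the 6 lists. The percentile was 92.0 in Q7SST, 83.2 in Q111SST, 87.5 under cyproheptadine, 91.1 under loxapine, 88.8 under DKI and 91.8 under meclizine. All 5 other lists lay above the mutant vehicle control, by 4.31 to 8.86 points. Each difference was higher than 88.7% to 94.9% of those of all genes in its list. They kept their sign under every other way of ranking tried, by 8.38 to 12.16 points in lists of equal size. All 5 differences share a single Q111SST list, and every ranking used the same scores. Width went the other way, at 1540, 2191, 1372, 2058, 1347 and 1968 bp. The Q111SST peak was the widest and ran 1828 bp into the gene, over 1591 bp of intron, whereas those of Q7SST, cyproheptadine and DKI ended 972 to 1051 bp past the start. No other member was lower in strength and wider in Q111SST than in each of the other lists. The share of all genes with this pattern was not counted.

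Oma1 encodes the stress-activated metalloprotease of the inner membrane that cuts Opa1. Its percentile (ENSMUSG00000035069.3, chr4:103313812-103371868, plus strand) was 97.5 in Q7SST, 99.0 in Q111SST, 90.2 under cyproheptadine, 96.6 under loxapine, 97.7 under DKI and 97.7 under meclizine. Cyproheptadine was the low list, at -8.79 points against Q111SST. Width was 1275, 1478, 1283, 1390, 1162 and 1380 bp in that order, so Q111SST had the widest peak.

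The position of the Oma1 peak set Q7SST apart. In the wild-type line it reached only 8 bp upstream of the first GENCODE start, as the capitals in the printed stretch show, but 352 bp in Q111SST, 369 bp under cyproheptadine, 412 bp under loxapine, 359 bp under DKI and 399 bp under meclizine. On the other side it was the longest, at 1266 bp past the start against 802 to 1125 bp. All 5 lists from STHdhQ111 cells thus shared an upstream flank that the STHdhQ7 list lacked. An upstream edge at least 300 bp closer to the start in Q7SST than in Q111SST, a limit set after seeing this gene, held for 1 of 10 members and for 4.93% of 10424 genes compared. Oma1 also had an alternative start at 103328908, with a weak peak in Q111SST (533 bp, percentile 32.4), loxapine (227 bp, percentile 17.7) and meclizine (706 bp, percentile 33.7) only. Inside the gene, 17507 to 17970 bp from the nearest annotated start, a further peak was present in all 6 lists with percentiles from 33.5 with cyproheptadine to 63.6 with meclizine.

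Dnm1l encodes the GTPase that constricts mitochondria. The gene (ENSMUSG00000022789.15, chr16:16312230-16358959, minus strand) had percentiles of 89.1 in Q7SST, 87.6 in Q111SST, 83.1 under cyproheptadine, 80.1 under loxapine, 88.2 under DKI and 83.0 under meclizine. Only loxapine was past 5 points, at -7.51 against Q111SST. Among promoter peaks every list reached that limit, with 6.88 points in Q7SST and 9.03 under DKI. In that ranking Dnm1l stood at -5.0 points under cyproheptadine, -16.78 under loxapine and -6.76 under meclizine. Its width differed by up to 1.98 times between lists, at 2091 bp in Q7SST, 2467 bp in Q111SST, 1256 bp under cyproheptadine, 2493 bp under loxapine, 1259 bp under DKI and 1964 bp under meclizine. The peak ended 907 bp past the first start with cyproheptadine and 872 bp with DKI, but 1485 to 2078 bp past it in the other 4 lists, while its upstream edge moved by no more than 144 bp. The stretch missing from these lists lies inside the gene and was mostly intron (1765 bp of the Q111SST peak, 665 bp of the cyproheptadine peak), and no second peak overlapped the Q111SST peak there.

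Fis1 encodes a tail-anchored adaptor of the outer membrane. The gene (ENSMUSG00000019054.13, chr5:136953275-136966234, plus strand) was the only member with peaks at more than 1 promoter in all 6 lists. Its 6 starts fell into an upstream site at 136953275 and a downstream site at 136962077, and both carried very strong peaks. The upstream site had percentiles of 99.7 in Q7SST, 99.3 in Q111SST, 95.9 under cyproheptadine, 98.1 under loxapine, 96.5 under DKI and 96.1 under meclizine. The downstream site had 99.1, 99.8, 98.9, 96.4, 98.5 and 99.4 in the same order. The upstream peak was the stronger in Q7SST and with loxapine, and the downstream peak was the stronger in the other 4 lists. The stronger peak was never below 98.1, and its width ran from 1047 bp with DKI to 1396 bp with loxapine. Its percentile range was the narrowest of the 10 genes, but a peak so near the top of the scale has little room to vary. The downstream peak in Q111SST lay wholly inside the gene. It covered 677 bp of intron, 406 bp of exon without a coding annotation, 107 bp of UTR and 45 bp of coding sequence. Part of its sequence is the second one printed above. The CpG ratio of that promoter, 0.359, was low among the members but near the median of 0.384 over all promoters.

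Mff encodes the tail-anchored receptor that recruits Dnm1l to the outer membrane. Its percentile (ENSMUSG00000026150.14, chr1:82724890-82752394, plus strand) was 83.8 in Q7SST, 86.5 in Q111SST, 80.0 under cyproheptadine, 80.1 under loxapine, 82.2 under DKI and 83.8 under meclizine. Q111SST was the highest list, and cyproheptadine and loxapine were the lowest, at -6.47 and -6.42 points. Width was 1916, 2065, 1677, 2030, 1648 and 1722 bp in that order, and only DKI, at 0.798 of Q111SST, was past the limit of 0.8. The Q111SST peak also covered 3 starts of the antisense RNA C430014B12Rik, so the mark cannot be given to Mff alone. Over the 6 lists Mff and Dnm1l had the closest percentiles of any pair of members, with a largest difference of 6.04 points. A gene outside the set can be closer to a member, as Zfp236 was to Mfn2 at 3.82 points. A link between Mff and Dnm1l was not tested.

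Mief1 encodes the outer-membrane adaptor MiD51, which also binds Dnm1l. The gene (ENSMUSG00000022412.14, chr15:80234018-80253371, plus strand) had percentiles of 72.3 in Q7SST, 75.5 in Q111SST, 53.3 under cyproheptadine, 61.4 under loxapine, 71.0 under DKI and 76.2 under meclizine. Cyproheptadine and loxapine stood below the other 4 lists, at -22.11 and -14.07 points against Q111SST, and these differences were lower than those of all but 5.75% and 5.08% of genes. In lists of equal size they were -18.91 and -24.96 points, so which compound was the lower depended on the ranking. Width did not go with strength, at 1984, 1892, 1813, 2188, 1291 and 1790 bp, where loxapine was the widest and DKI the narrowest. A separate peak over the start of the neighbouring gene Atf4 lay 724 to 1022 bp beyond the end of Mief1, with percentiles from 65.6 to 69.9 in the 6 lists. It stood at 65.8 with cyproheptadine, 65.6 with loxapine and 66.1 with DKI, beside 68.9 in Q111SST.

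Pink1 encodes the kinase that marks damaged mitochondria for removal. Its percentile (ENSMUSG00000028756.12, chr4:138313409-138326307, minus strand) was 67.7 in Q7SST, 75.1 in Q111SST, 60.2 under cyproheptadine, 76.4 under loxapine, 68.0 under DKI and 72.2 under meclizine. Cyproheptadine was the low list, at -14.88 points against Q111SST, and Q7SST and DKI were at -7.37 and -7.03 points. The DKI difference turned to 0.80 points above Q111SST when lists were cut to equal size. Width was 1301, 1324, 1519, 1471, 928 and 1341 bp, with cyproheptadine the widest and DKI the narrowest. The downstream edge lay within 75 bp in all lists, so the DKI peak was short at its upstream side, where it stopped 103 bp inside the gene and covered no annotated start of Pink1. The Q111SST peak also held the start of the annotated microRNA Gm27646. A strongest peak that covers no start was found with DKI for 1 of 10 members and for 17.5% of all marked genes.

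Vdac1 encodes the abundant outer-membrane channel for ions and metabolites. The percentile of this gene (ENSMUSG00000020402.11, chr11:52360860-52389397, plus strand) was 68.6 in Q7SST, 78.3 in Q111SST, 72.1 under cyproheptadine, 80.1 under loxapine, 69.2 under DKI and 75.8 under meclizine. Q7SST, DKI and cyproheptadine were lower than Q111SST by more than 5 points, and meclizine and loxapine were within it. In lists of equal size only the Q7SST difference remained past 5 points, with -2.22 for DKI and -2.09 for cyproheptadine. Width was 2128, 2482, 1937, 2105, 2102 and 2073 bp, with Q111SST the widest. A small peak inside the gene was listed in Q7SST, Q111SST and meclizine only, at percentiles of 9.57, 51.5 and 14.0.

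**Figure D2:**
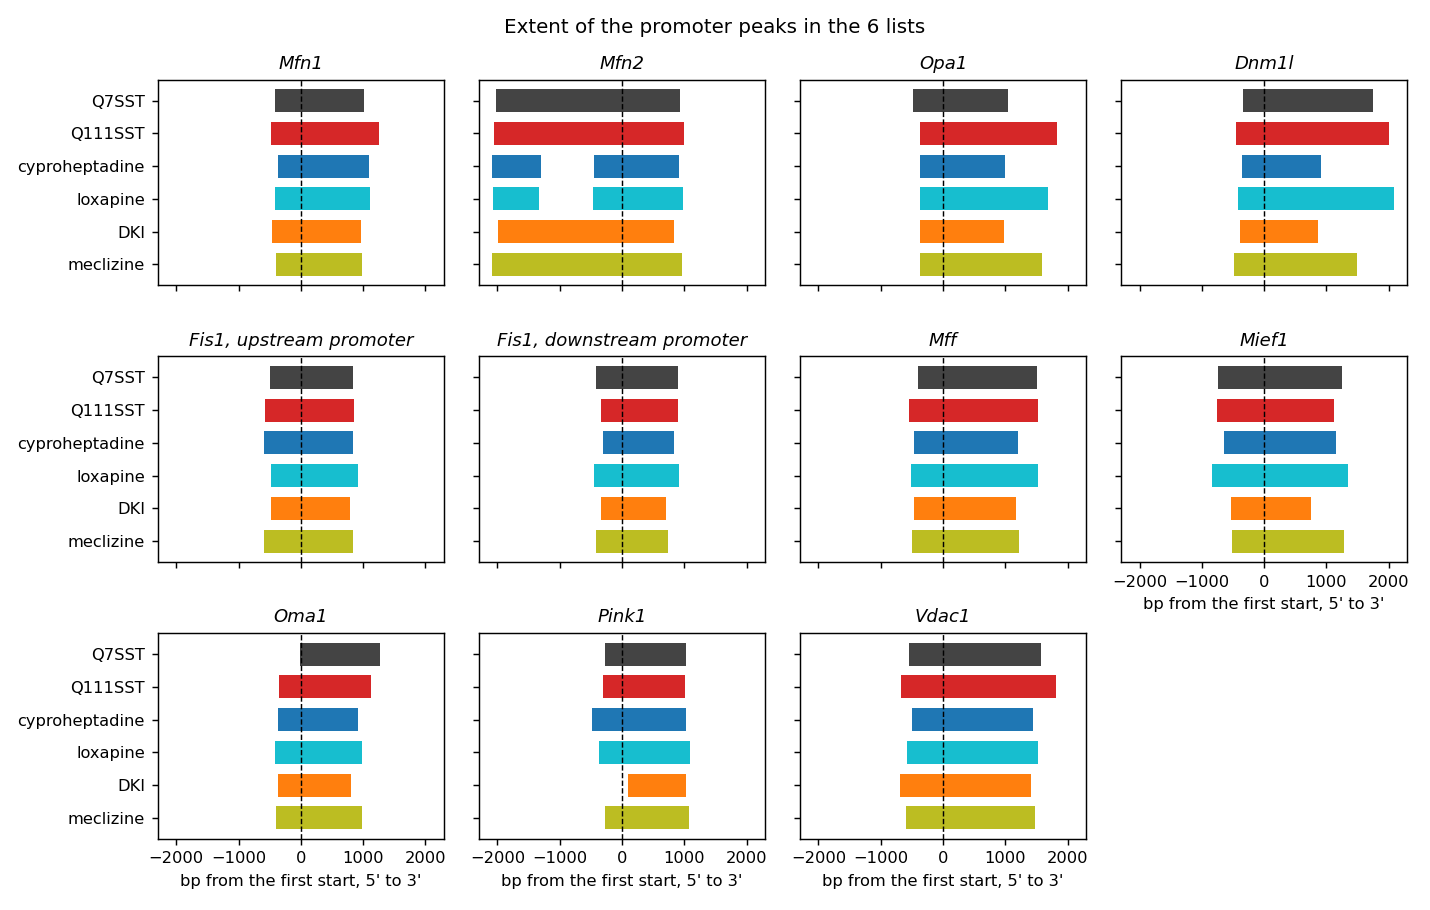
Extent of the promoter peak of each gene in the 6 lists, in bp from the most upstream annotated start of the site (dashed line, transcription to the right). Both Fis1 promoters are shown, and the Mfn2 panel shows the second, upstream peak with cyproheptadine and loxapine. The Mfn2 gap, the short Dnm1l peaks with cyproheptadine and DKI, the Oma1 peak of Q7SST at the start and the Pink1 peak of DKI inside the gene can be seen.

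The 2 edges of the peaks did not vary alike. Measured from the most upstream start under the Q111SST peak, the downstream edge spread more over the 6 lists than the upstream edge for 8 of 10 members, as it did for 66.4% of all genes compared. The median spread of a member was 164 bp upstream and 366 bp downstream, against 202 and 325 bp over all genes. The exceptions were Mfn2, with a spread of 1642 bp upstream against 162 bp downstream, through its split peak, and Pink1, with 585 against 75 bp. With its upstream peaks counted, the far edge of the Mfn2 block spread by only 96 bp. Dnm1l (1206 bp) and Opa1 (856 bp) had the largest downstream spreads. Over all members the annotated starts made 29 sites, of which 11 were marked in all 6 lists, the Oma1 alternative start in 3, and 17 in none.

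The wild-type line was set against the mutant line under vehicle, to ask how these promoters differed with the huntingtin genotype. Opa1 alone was at least 5 points higher in Q7SST than in Q111SST (1 of 10 members, 17.8% of all genes). Pink1 and Vdac1 were at least 5 points lower (2 of 10, against 27.4% of all genes). No member was at least 25% wider (0 of 10, against 9.83%), and Opa1, at 0.703 of its Q111SST width, was the only one at or under 0.8 (1 of 10, against 13.3%). The other 7 members were within 5 points and within these width limits. Each of these counts was below the share over all genes, and the median change was -0.9 points for the members and -1.04 over all genes.

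Cyproheptadine, a serotonin and histamine receptor antagonist, went with lower strength at 5 members: Mff, Mief1, Oma1, Pink1 and Vdac1 (5 of 10, against 44.1% of all genes). Mfn2 was the only one higher (1 of 10, against 9.68%). None was wider (0 of 10, against 1.9%), and Mfn2, Opa1, Dnm1l and Vdac1 were narrower (4 of 10, against 29.3%), Mfn2 through its split peak, which left 3 after merging. The list as a whole had moved too, with a median change over all genes of -3.74 points against -5.36 for the members. With lists of equal size 3 members were lower, Mff and Vdac1 no longer being among them, and Mfn2 and Opa1 were higher. No share of all genes was counted for lists of equal size.

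Loxapine, a tricyclic antipsychotic, went with higher strength at Mfn2 and Opa1 (2 of 10, against 18.6% of all genes). Dnm1l, Mff and Mief1 were lower (3 of 10, against 22.4%), a share near that of all genes. None was wider (0 of 10, against 5.58%) and only Mfn2 was narrower (1 of 10, against 13.7%), through its split peak. The median change was small, at -0.52 points for the members and -0.35 over all genes. The differences of Dnm1l, Mff and Mief1 kept their sign in every other ranking tried, and those of Mfn2 and Opa1 did too. In lists of equal size those of Dnm1l and Mff were larger, at -13.20 and -11.78 points.

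DKI, which blocks diacylglycerol kinase, gave the shortest list and the lowest median width over all genes. Mfn1, Mfn2, Pink1 and Vdac1 were at least 5 points lower (4 of 10, against 55.9% of all genes), and Opa1 was higher (1 of 10, against 8.49%). None was wider (0 of 10, against 2.32%), and Opa1, Dnm1l, Mff, Mief1, Oma1 and Pink1 were narrower (6 of 10, against 40.7%). Every member was narrower than in Q111SST to some degree, as was the median gene. The median width ratio to Q111SST was 0.792 for the members and 0.833 over all genes. The share of all genes narrower by any amount was not counted. The median change over all genes was -6.57 points, larger than the -4.41 of the members. With lists of equal size Mfn1 alone was at least 5 points lower, but the share of all genes was not counted at that size. The Mfn1 difference of -10.07 points was then -9.53, and it was -18.03 among promoter peaks. The smaller Mief1 difference of -4.47 points turned to 3.22 above Q111SST in lists of equal size and 5.48 above it among promoter peaks.

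Meclizine, a histamine receptor antagonist, had the fewest counted differences of the compounds. Opa1 was the only member at least 5 points higher (1 of 10, against 10.6% of all genes) and none was as much lower (0 of 10, against 27.8%). None was wider (0 of 10, against 6.1%), and Mfn1 and Dnm1l were narrower, at 0.791 and 0.796 (2 of 10, against 12.8%). The lowest change was that of Dnm1l, at -4.58 points, just inside the limit. It reached the limit in lists of equal size, at -5.0 points, and passed it among promoter peaks, at -6.76. The median changes were -1.86 points for the members and -1.54 over all genes.

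**Figure D3:**
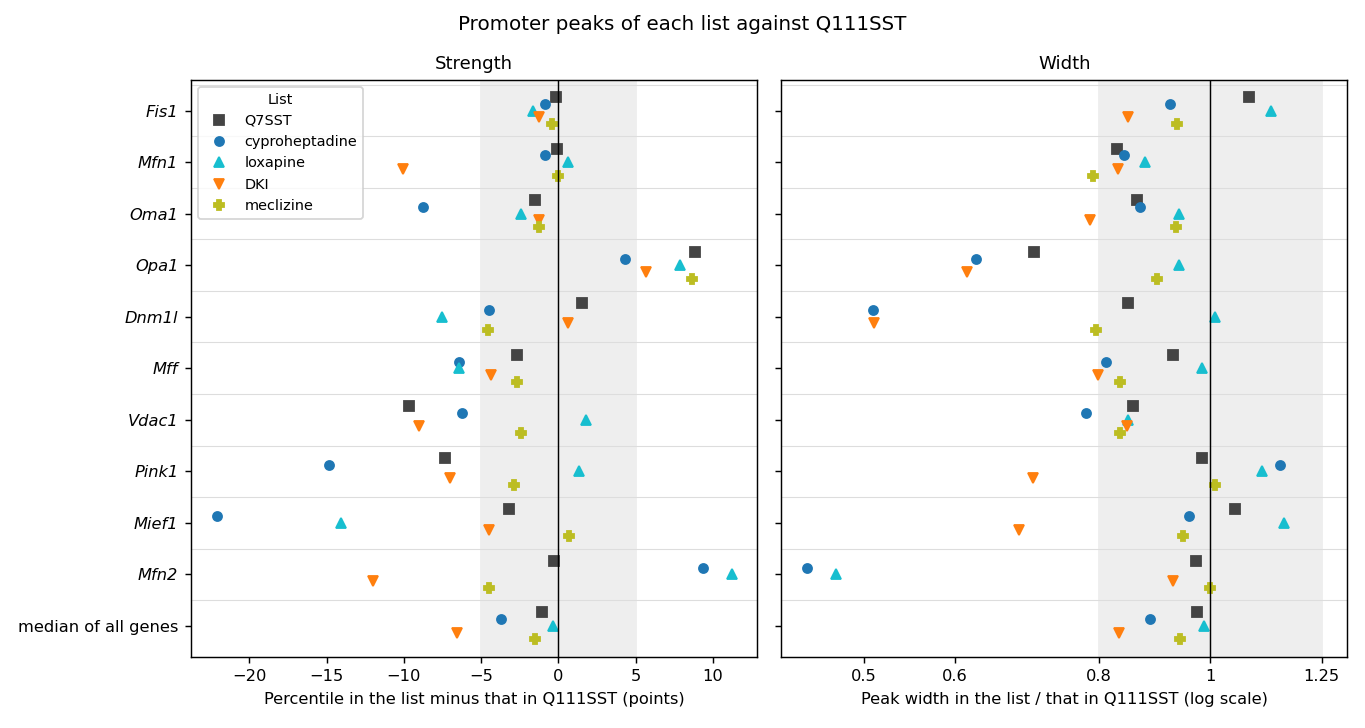
Change of each gene against Q111SST in strength percentile (left, points) and in peak width (right, ratio on a log scale), 1 symbol per list, with the median of all genes marked in both lists in the bottom row. The grey bands span -5 to 5 points and widths from 20% below to 25% above Q111SST. The 5 symbols of Opa1 all lie to the right of 0 for strength and to the left of 1 for width, and all share the same Q111SST values.

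Side by side, some members followed the division into Group A and Group B and others did not. Mief1 and Mff were at least 5 points lower with both Group A compounds and with neither compound of Group B (2 of 10, against 1.75% of all genes), and Mfn2 was at least 5 points higher in the same way (1 of 10, against 2.49%). This division was counted after the values were seen. For Mff it was lost in lists of equal size, where the cyproheptadine difference was -4.16 points, and its DKI difference of -4.34 points was close to the limit. The DKI difference of Mief1 was close to it too, at -4.47 points. Dnm1l was short with cyproheptadine and DKI, 1 compound of each group, and Mfn1 was lower with DKI and not with meclizine. All compound lists were compared with the same Q111SST list, so its low Opa1 percentile enters every comparison. None of these differences between compounds could be tested with 1 list each.

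A wider list of 35 other genes of mitochondrial dynamics was examined in the same way. Of these, 32 were marked in all 6 lists, against the 53.5% of all genes given above: 9 of 10 genes for fission and its receptors, 10 of 12 for fusion, proteases and the inner membrane, 4 of 4 for transport on microtubules, 7 of 7 for ubiquitin and mitophagy and 2 of 2 for channels. Gdap1 and Pld6, both outer-membrane proteins, were marked in none. Miga1, a mitoguardin, was marked in 4 lists, at percentiles of 57.9 in Q7SST, 8.76 in Q111SST, 8.5 with loxapine and 18.7 with meclizine. It was the one gene of mitochondrial dynamics here whose peak was absent from some lists, and it had the largest range, 49.4 points. Slc25a46 followed, from 39.7 with DKI to 74.4 with loxapine, and then Rhot2 (Miro2, which couples mitochondria to motors), from 51.7 with DKI to 85.3 in Q7SST. The steadiest were Rhot1 (95.8 to 98.1), Bnip3l, a mitophagy receptor, with a range of 4.26 points, and Yme1l1, the other protease of Opa1, with 4.8. Of the genes marked in both lists, 3 of 33 were at least 5 points higher and 6 lower in Q7SST than in Q111SST, against 17.8% and 27.4% of all genes. With cyproheptadine 3 of 32 were higher and 10 lower (9.68% and 44.1% of all genes), and with loxapine 7 of 33 were higher and 5 lower (18.6% and 22.4%). With DKI 0 of 32 were higher and 16 lower (8.49% and 55.9%), and with meclizine 1 of 33 was higher and 4 lower (10.6% and 27.8%). Narrower peaks were found for 14 of these genes with DKI (40.7% of all genes), 9 with cyproheptadine (29.3%), 3 with loxapine (13.7%) and 0 in Q7SST and with meclizine (13.3% and 12.8%), and wider ones for at most 2 in any list. The 10 members and these genes thus shared near-complete marking, and in both sets DKI and cyproheptadine had more lower than higher values, as they had over all genes.

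**Figure D4:**
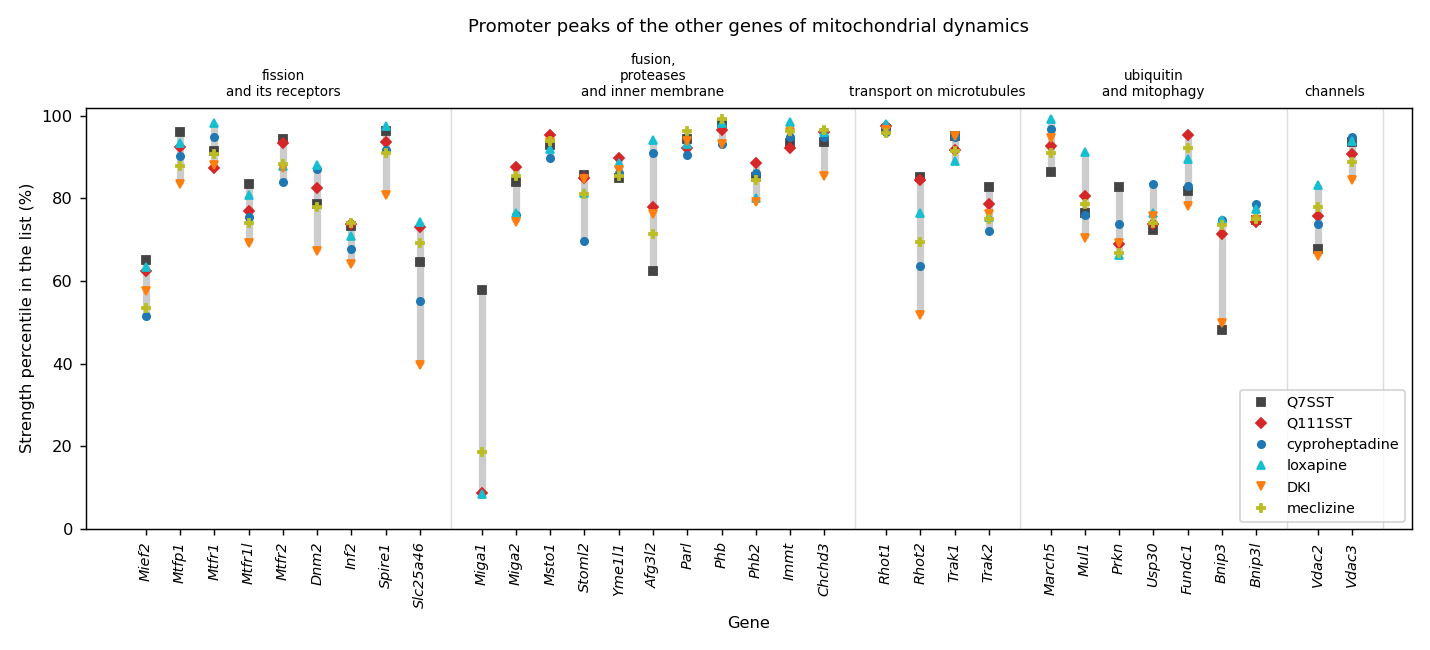
Strength percentile of the promoter peak of the 33 other mitochondrial dynamics genes with a peak in at least 1 list, grouped by role (1 symbol per list, grey bar from lowest to highest). Miga1 has 4 symbols, and 3 of them lie below 20.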

How the data were processed

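STHdh cells were crosslinked and their chromatin was digested with MNase before H3K4me3 immunoprecipitation and single-end sequencing. Per the labels, reads were trimmed with Trimmomatic 0.36, aligned to mm10 with Bowtie2 and handled with SAMtools 1.3, and peaks were called with MACS2. The settings, the use of an input and the pooling of replicates are not given in the sources used here. The deposited lists give each peak a score, a whole number made by the authors' peak caller whose scale is not stated, with a lowest value of 10 in each list. Scores were therefore compared only as percentiles within a list, as the share of peaks with a lower score plus 0.5 of the ties. A threshold of the caller and the number of reads both set how many peaks are listed and how wide they are, and their part in the differences was not tested.

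Peaks were read with pandas 2.3.3 and matched to GENCODE vM21 starts on GRCm38, leaving out the mitochondrial chromosome. No peak lay beyond a chromosome end on the 21 chromosomes compared. For each gene the strongest peak within 1 kb of any start gave the percentile and the width. A difference was counted where the percentile moved by at least 5 points or the peak was at least 25% wider or 20% narrower than in Q111SST. With 1 list per condition these limits are fixed sizes and no test was made. The steps were tested on simulated lists.

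Named were all 10 members, and of the other mitochondrial dynamics genes those unmarked in any list and the 3 with the largest and the 3 with the smallest percentile range. The members, gene lists and limits were chosen with earlier results of these data known. Split peaks, peak edges, separate starts, neighbouring starts, the division by compound group and the Oma1 stretch were examined after the values were seen. Alternatives changed the window, the ranking, the list sizes, the transcripts and the definition of width. Promoter sequences were those of RefSeq on GRCm38.p6.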

Additional observations from a re-analysis of the deposited data

How the results depend on the processing

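Of 174 recomputed counts and medians, 141 kept their value, with counts allowed to differ by up to 1.5 times. The window of 5 kb and the use of protein-coding transcripts only left every member's percentile and width as they were. Much of that total therefore comes from settings that chose the same peaks. Of the median percentiles, 18 of 30 kept their value and 12 moved. Counts of marked members stayed at 10 except for 9 with cyproheptadine when scores under the pooled median of 47 were left out, without Mief1, and 9 with DKI when a peak had to cover a start. Ranking against promoter peaks only gave median percentiles of 70 in Q7SST, 62.5 in Q111SST, 61.1 under cyproheptadine, 52.2 under loxapine, 72.6 under DKI and 63.1 under meclizine. Lists cut to the 30758 strongest peaks gave 83.1 in Q7SST, 80.1 in Q111SST, 79.8 under cyproheptadine, 70.5 under loxapine and 79.2 under meclizine. With a peak required over a start DKI, without Pink1, had a median percentile of 88.2 and a median width of 1347 bp. Summed widths had medians of 1950 bp in Q7SST, 2128 bp in Q111SST, 1490 bp under cyproheptadine, 2044 bp under loxapine, 1395.5 bp under DKI and 1966 bp under meclizine, and merging peaks within 1 kb gave 1490 bp with cyproheptadine and 2044 bp with loxapine. Among promoter peaks, 2 members were higher than in Q111SST in Q7SST, 2 with cyproheptadine, 3 with DKI and 2 with meclizine, and 1 was lower with DKI and 1 with meclizine. In lists of equal size 2 were higher and 3 lower with cyproheptadine, 1 was lower with DKI and 1 with meclizine. Summed widths made 2 members narrower in Q7SST, and merging left 0 narrower with loxapine and 3 with cyproheptadine. The shares of all genes past the limits were not counted under these settings.

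Of the members' own values past a limit, that of Pink1 with DKI changed direction. It lay 1.82 points above Q111SST among promoter peaks and 0.80 points above it in lists of equal size, and the narrower Mfn2 width with loxapine became a ratio of 1 after merging, which is no difference. Of those within the limits, Mief1 with DKI turned from -4.47 to 5.48 points among promoter peaks. Changes of sign that stayed within the limits were those of Mff with DKI and of Pink1 and Vdac1 with loxapine. Mfn2 in Q7SST and Mfn1 in Q7SST and with meclizine also changed sign within them. The cause of the changes in ranking was not tested. No paired analysis was possible because only a single list stood for a condition.

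The lists hold no reads, so depth and counting error are unknown, and their lengths from 30758 to 45564 peaks differ as the conditions do. Differences between conditions and between preparations cannot be told apart with 1 list each.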
